A study of Mus musculus with 48 samples.

Results

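The cytosolic ribosomal protein genes code for the proteins that, together with the ribosomal RNAs, make up the ribosome of the cytoplasm. They were taken from the deposited gene count table as the protein-coding genes whose symbol starts with Rpl or Rps followed by a digit, together with Rplp0, Rplp1, Rplp2 and Rpsa. Ribosomal S6 kinases (Rps6k) and symbols containing -ps, which mark pseudogenes, were dropped. This gave 87 of the 56748 genes in the table, of which 86 had a count in at least 1 library. By role they were 31 proteins of the small (40S) subunit, 43 of the large (60S) subunit, the 3 stalk proteins Rplp0, Rplp1 and Rplp2, and 10 paralogues or proteins that are not ribosome subunits but carry a matching symbol.

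Polyadenylated RNA was sequenced from the cerebellum, the medial prefrontal cortex, the dorsal hippocampus and the ventral hippocampus of mice aged 16 weeks. Animals labelled KO were of the line 129/Sv-Cyp2e1tm1Gonz/J, which carries a targeted allele of Cyp2e1, a cytochrome P450 that oxidises ethanol, and those labelled WT were 129S1/SvImJ. Each region, sex and label had 3 libraries, 48 in all, so 6 libraries labelled KO stood against 6 labelled WT in each region. No treatment is given, both labels were kept on normal chow, and each label is a strain of its own, so the allele and other differences between the strains cannot be told apart.

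A ribosome holds a single copy of most of its proteins, and their messenger RNAs are among the most uniformly expressed of a cell. Most of these messages begin at a C followed by an unbroken run of C and T, the 5′ terminal oligopyrimidine (TOP) motif, through which the mTORC1 kinase and the RNA-binding protein Larp1 control their translation. In the brain, ribosomal protein messages are present in neurons, their processes and glia. The genes have many processed pseudogene copies in mammalian genomes, some nearly identical in sequence, which can draw reads away from the gene in counting.

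The libraries were first checked against their labels. Cyp2e1 had 34 to 111 counts in the 24 libraries labelled KO and 0 to 8 counts in the 24 labelled WT, without overlap in any of the 4 regions. This goes against the label as named, and whether the counted part of the gene lies outside the targeted part was not tested, so groups are called by their labels throughout. Library totals lay between 14.56 and 25.86 in units of 1000000 counts. Several libraries stood apart in markers of cell types: the summed level of 12 cerebellar granule cell markers spanned 1155 to 8049 CPM (counts divided by the scaled library total in units of 1000000) in cerebellar libraries labelled KO and 302.7 to 5462 CPM in those labelled WT, against 230.7 to 293.4 CPM over both labels in the prefrontal cortex. The cerebellar libraries female WT 1, male WT 2 and male WT 3 were therefore low in markers of the cells that define the tissue. Summed oligodendrocyte markers spanned 4296 to 8072 CPM in cerebellum labelled KO and 7083 to 17000 CPM in cerebellum labelled WT. Granule cell markers were high in 1 dorsal library (male KO 1) and 3 ventral libraries (male KO 3, male WT 1 and male WT 2), and the prefrontal libraries female KO 2 and male KO 1 stood apart in striatal markers. These 9 are the libraries whose mean granule cell marker level lay more than 2, or in the prefrontal cortex whose mean striatal marker level lay more than 1.3, from the region's median on the log2 scale. Results are given with all libraries and without these 9, a choice made after seeing the data. Choroid plexus markers also stood apart, at 2.67 to 3.86 above the region's median, in cerebellar male WT 1, dorsal female KO 3 and female WT 3, and ventral male KO 3 and male WT 1. Only the ventral pair is among the 9, and results that change without these 5 libraries are given with that value. In such bulk tissue, fewer cells of a type and less RNA per cell cannot be told apart.

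The start of the gene is where these messages carry their shared signal. RefSeq promoter sequences on the GRCm38.p6 build, a different build from the gene positions given elsewhere, matched 67 of the 87 genes. A run of at least 5 bases that opened with C and held only C and T, beginning within 10 bases of an annotated start, was found for 40 of these 67 (59.7%), against 31.5% of all 27025 genes in that table. A C at the annotated start base itself was found for 22 of the 67 (32.8%), against 18.9% of all genes. The letters CGGAAG on either strand, the core that ETS family factors bind, lay in the 300 bases around the start of 44 of the 67 (65.7%), against 18.8% of all genes. Read on the other strand these letters are CTTCCG, which can overlap a run of C and T. Such matches describe these windows and not sites in use. The starts below belong to the genes that the results turn on, each as 30 bases centred on the annotated start, which is the base after the first 15 letters, 5′ to 3′ on the coding strand, with the run of C and T in capitals.
Rps6, chr4:86857353-86857382, minus strand: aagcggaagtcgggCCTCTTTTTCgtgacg
Rps7, chr12:28635939-28635968, minus strand: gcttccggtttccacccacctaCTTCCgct
Rps19, the most downstream of 3 annotated starts, chr7:24884898-24884927, plus strand: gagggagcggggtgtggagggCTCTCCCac
Rpsa, chr9:120127751-120127780, plus strand: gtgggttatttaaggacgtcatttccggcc
Rps2, chr17:24720048-24720077, plus strand: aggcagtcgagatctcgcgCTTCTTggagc
Rpl12, chr2:32961697-32961726, plus strand: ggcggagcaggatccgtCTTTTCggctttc
Rpl18, chr7:45718056-45718085, plus strand: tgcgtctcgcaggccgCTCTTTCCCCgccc
Rpl22l1, chr3:28805493-28805522, plus strand: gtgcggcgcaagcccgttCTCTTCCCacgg
Rps6 and Rpl18 had the longest runs of these 8, at 10 bases, and the window of Rpsa held no run by this rule, nor did those of the other two starts of Rps19, which are not printed. The window of Rps6 also holds cggaag. That of Rps7 holds the reverse complement cttccg at 2 places, and the second overlaps its run.

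The 87 genes together took 0.778% to 1.241% of the counts of a library. Among them, levels were compared per kilobase of the deposited gene length. Rplp1, an acidic stalk protein that helps recruit elongation factors, was highest at 697 CPM per kb. It was followed by Rps15 at 340, Rpl4 at 212, Rpl8 at 182 and Rps21 at 178 CPM per kb. At the low end, Rpl24 stood at 0.310, Rpl34 at 0.587, Rpl29 at 0.805 and Rps10 at 0.990 CPM per kb. Each codes for a standard subunit, and for these 4 most matching counts lay on copies elsewhere in the genome, as described further on. The copies of Rpl24 were low as well, with a mean of 51.8 counts per library beside 5.6 on the gene. Those of Rpl34, Rpl29 and Rps10 held 1065.7, 801.4 and 497.6 counts. The paralogues were mostly low beside their partners: Rpl3l, which is known from muscle, had 0.211 CPM per kb against 61.0 for Rpl3. Rpl10l, which takes over from Rpl10 in the testis, had no count in any library, while Rpl10 had 75.3 CPM per kb. Rpl39l, also known from the testis, had 0.083 CPM per kb against 45.6 for Rpl39, and Rpl36al had 0.193 against 33.2 for Rpl36a. Rpl22l1 was the exception with 14.3 CPM per kb beside 25.5 for Rpl22, and Rpl7l1 had 12.1 beside 68.2 for Rpl7. Rps27l, a p53 target, had 10.0 CPM per kb, against 55.7 for Rps27 and 98.8 for the retrogene Rps27rt. Rpl10l, Rpl36al, Rpl39l and Rps23rg1 were too low to be tested in any region (mean counts of 0, 4.42, 1.17 and 1.4 per library), which left 83 genes tested in at least 1 comparison.

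Between libraries of one group the genes varied little. For the 78 with a mean of at least 100 counts, the median SD between libraries within groups was 0.122 on the log2 scale, and only 5 exceeded 0.3. Those above that line included genes whose sequence is shared with another locus. Rps27, a 40S zinc-finger protein, and its retrogene Rps27rt have identical coding sequences. Their SDs were 0.342 and 0.542, yet the SD of their summed level was 0.138. Rps27rt alone ranged from 13.3 to 68.6 CPM and was the higher of the pair in 12 of 48 libraries, while the sum ranged from 61.0 to 128 CPM. Rpl30, a 60S protein, had an SD of 0.840, its copy Gm12191 had 0.137, and their sum had 0.107. In every one of the 48 libraries Gm12191 held more counts than Rpl30, with 49.6 to 82.8 CPM against 2.45 to 18.5 CPM. How alike such pairs are is shown by the coding sequences of GENCODE M21 on GRCm38, printed for bases 66 to 125 of Rpl30 (chromosome 15) and the matching stretch of Gm12191 (chromosome 11). The only difference there, in capitals, is G96A, counted from base 1 of the Rpl30 coding sequence. Bases 102 to 161 of Rpl34 (chromosome 3) and the matching stretch of Rpl34-ps1 (chromosome 6) differ only by T132C.
Rpl30: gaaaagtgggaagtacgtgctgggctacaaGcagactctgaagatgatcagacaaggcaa
Gm12191: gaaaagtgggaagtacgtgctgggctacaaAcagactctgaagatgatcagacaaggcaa
Rpl34: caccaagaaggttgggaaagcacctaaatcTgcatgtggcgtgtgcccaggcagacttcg
Rpl34-ps1: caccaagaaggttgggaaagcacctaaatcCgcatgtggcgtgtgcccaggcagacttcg
A search with the coding sequences found 584 such copies for 79 of the genes, at 95% identity or more over at least 50% of the coding sequence. Of the counts on genes and copies together, the copies held 14.5%, a share that lay between 13.7% and 15.2% in each library. For 10 genes the copies held more counts than the gene itself, among them Rpl29 (98.1% of the shared total), Rpl34 (97.6%), Rps10 (92.7%), Rpl24 (90.3%), Rpl30 (88.3%) and Rpl17 (78.8%). The others were Rps3a1 (77.0%), Rpl36al (70.7%), Rpl21 (53.4%) and Rplp0 (52.0%). The value of each of these 10 is therefore uncertain. The same holds for Rps27 and Rps27rt, each taken alone. Copies held more than 10% of the shared total for 35 genes, these 10 included, which bears on their values too. Values with copies added come from a setting chosen after seeing the data.

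**Figure D1:**
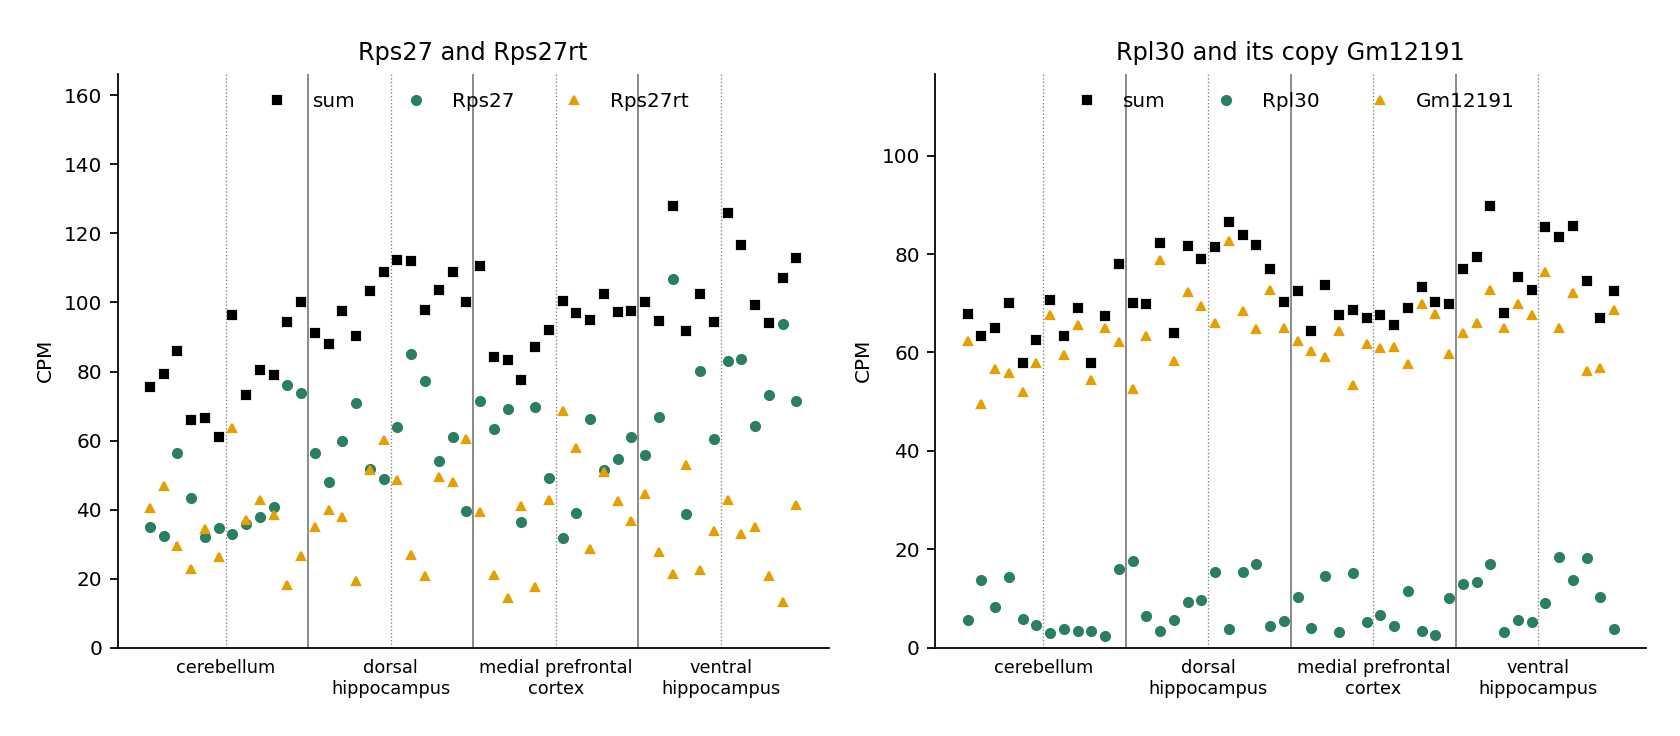
Level in CPM (vertical axis, linear from 0) of Rps27 with its retrogene Rps27rt (left) and of Rpl30 with its copy Gm12191 (right) in each of the 48 libraries, with regions parted by solid lines and, within a region, libraries labelled KO to the left of the dotted line and WT to the right. Rps27 (circles) and Rps27rt (triangles) trade places between libraries while their sum (squares) stays between 61.0 and 128 CPM, and Gm12191 exceeds Rpl30 in all 48 libraries.

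Set against libraries labelled WT, few ribosomal protein genes passed the test in libraries labelled KO, and those that did were lower. In the cerebellum 3 of the 82 tested were lower and 0 higher, where 5.55% of all 17825 genes tested were called lower and 2.43% higher (7.98% either way). The members' 3.66% is below that background. The 3 were 40S proteins: Rpsa, which doubles as the laminin receptor, Rps6, the substrate by which S6 kinase activity is often read, and Rps19, the gene most often mutated in Diamond-Blackfan anaemia. Positions of genes are on mm39, as in the deposited table.

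Rpsa (ENSMUSG00000032518, chromosome 9, 119956755 to 119961435, plus strand) ran from 239 to 343 CPM with a median of 264 in cerebellum labelled KO, against 298 to 424 CPM with a median of 360 in cerebellum labelled WT. The groups overlapped: 2 of the 3 female libraries labelled KO, at 324 and 343 CPM, lay above the lowest library labelled WT. The fitted log2 change was -0.38 (SE 0.10; adjusted p = 0.047 by edgeR's quasi-likelihood test with Benjamini-Hochberg adjustment over all genes). Rps6 (ENSMUSG00000028495, chromosome 4, 86772897 to 86775649, minus strand) ran from 166 to 200 CPM (median 179) in cerebellum labelled KO and from 184 to 251 CPM (median 225) in cerebellum labelled WT. Its log2 change was -0.29 (SE 0.075; edgeR adjusted p = 0.047). Rps19 (ENSMUSG00000040952, chromosome 7, 24583796 to 24589231, plus strand) had 76.1 to 107 CPM (median 85.4) in cerebellum labelled KO and 93.2 to 123 CPM (median 106) in cerebellum labelled WT, a log2 change of -0.28 (SE 0.076; edgeR adjusted p = 0.048).

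The 3 highest libraries for Rpsa were female WT 1, male WT 2 and male WT 3, the same ones that were low in granule cell markers. Their oligodendrocyte markers averaged 0.24, 1.05 and 0.25 above the region's median on the log2 scale. Without them no member was called (13 of 18964 genes were). Rpsa then had a log2 change of -0.16 (edgeR adjusted p = 0.564), Rps6 of -0.14 (adjusted p = 0.584) and Rps19 of -0.13 (adjusted p = 0.592). The fit without the 3 libraries set 6 labelled KO against 3 labelled WT, and male WT 1 was the only male labelled WT. How far the smaller number of libraries bears on the loss of calls was not tested. Leaving out 1 cerebellar library at a time gave 0 calls in 11 of 12 fits. It gave 34 lower without male WT 1, the library high in choroid plexus markers. That fit called 6400 of 18418 genes (17.4% lower and 17.4% higher). No single call in the cerebellum was thus kept in those 11 fits. The share of all genes called is not given for them, so their 0 calls are not a result about the members.

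**Figure D2:**
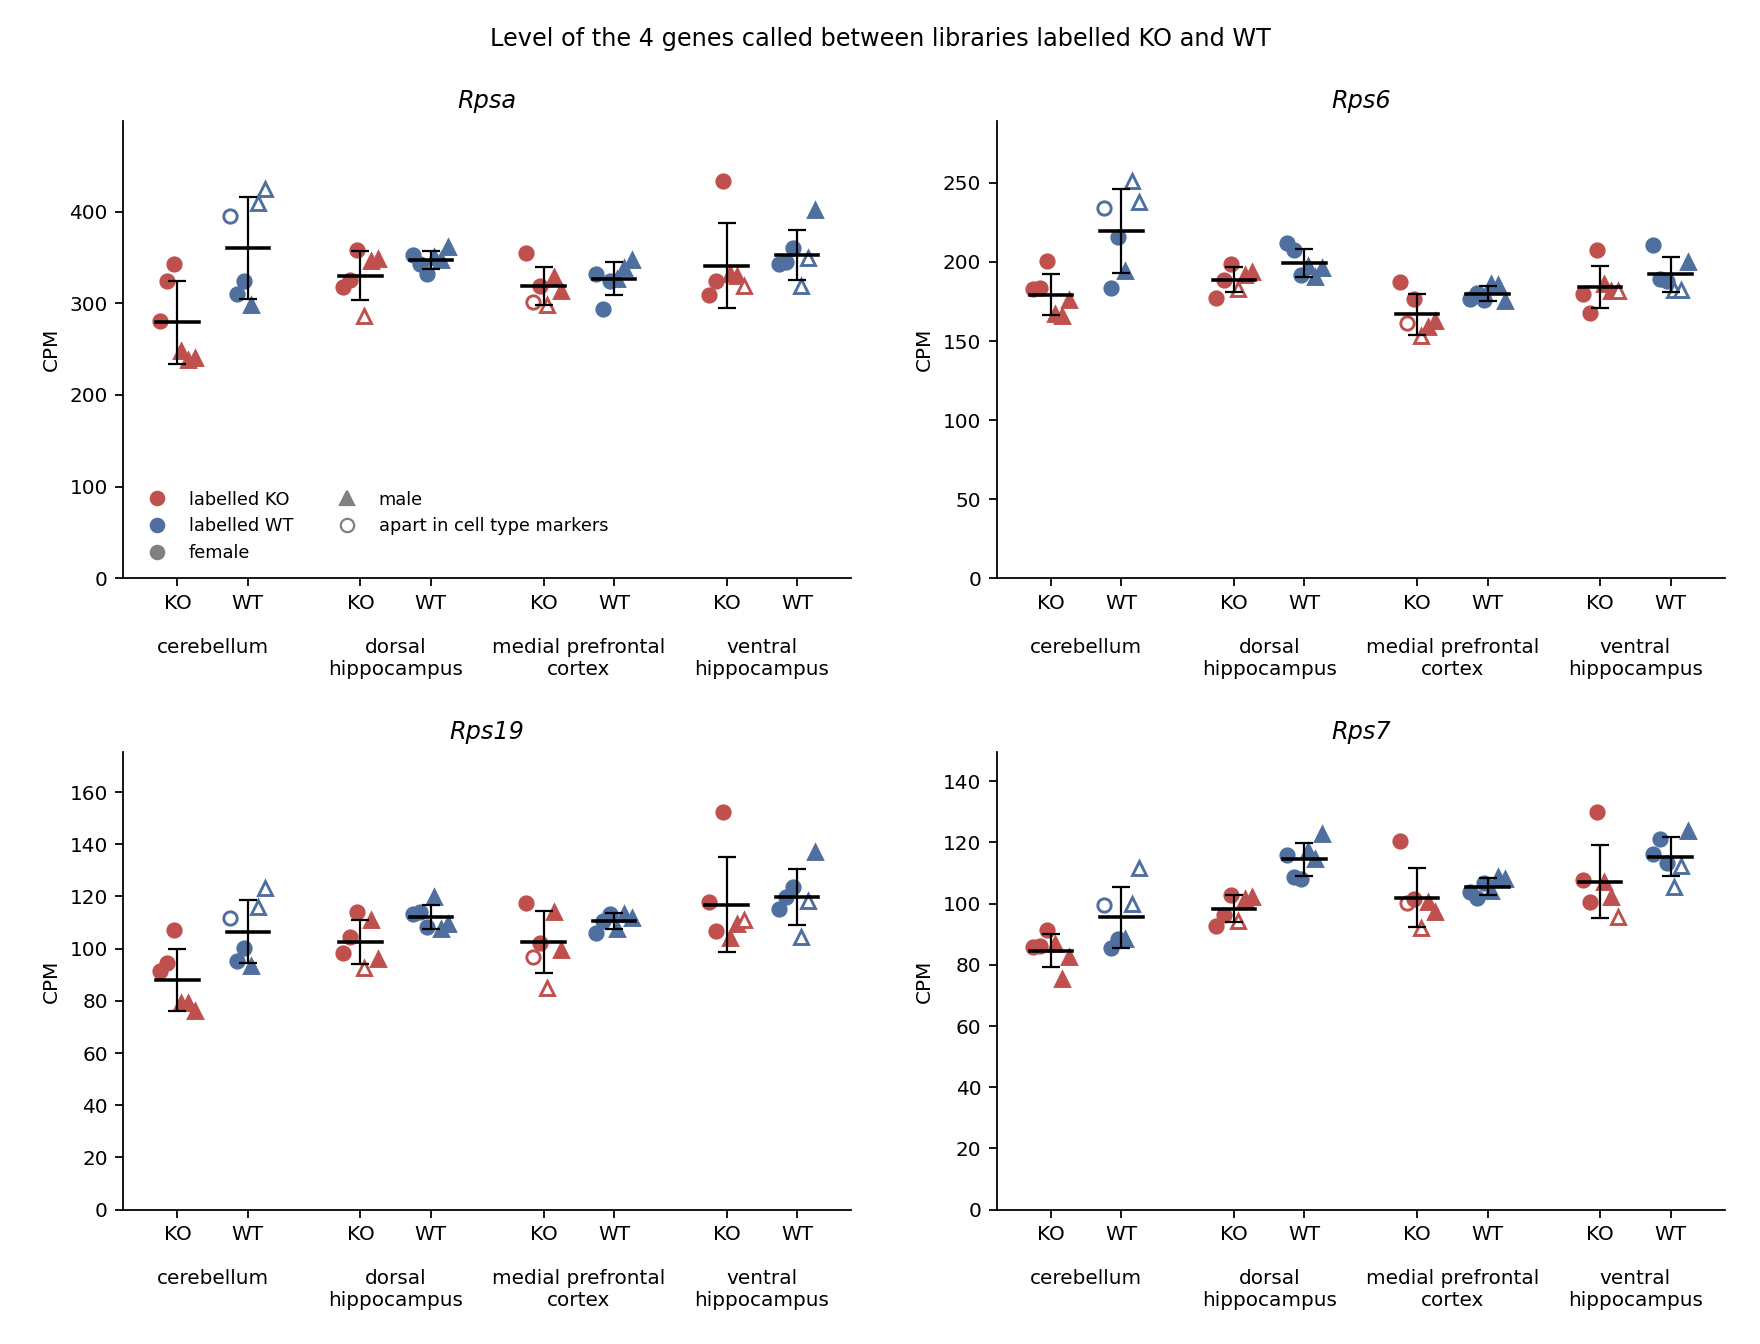
Level in CPM (vertical axes, linear from 0) of Rpsa, Rps6, Rps19 and Rps7 in each library, by region, with libraries labelled KO (red) left of those labelled WT (blue), circles for females and triangles for males, the mean as a bar with the SD (n = 6 each), and open symbols for libraries apart in cell type markers. In the cerebellum the open symbols labelled WT, at 395 to 424 CPM, are the highest for Rpsa, and in the dorsal hippocampus the labels do not overlap for Rps7.

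The next genes in the cerebellum missed the threshold. Rpl35, a 60S protein at the exit tunnel, had a log2 change of -0.25 and an adjusted p of 0.0501, and Rps20 had -0.26 and 0.0506, both by edgeR. The genes with the smallest p above 0 were Rpl24 with 1.19 (SE 0.47; edgeR adjusted p = 0.101), Rps19bp1 with 0.17, Rpl30 with 0.80 and Rps10 with 0.34. Rps19bp1 is a binding partner of Rps19 and no part of the ribosome. The other 3 are among the genes whose copies hold most counts. Rpl24 ran from 0.191 to 0.884 CPM in cerebellum labelled KO and from 0.056 to 0.697 CPM in cerebellum labelled WT. With copies added, the log2 changes were 0.19 for Rpl24, -0.08 for Rpl30 and -0.01 for Rps10.

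In the dorsal hippocampus 1 of 81 was lower, Rps7, a 40S protein that also binds the p53 regulator Mdm2, and 0 were higher, where 0.471% of 17402 genes were lower and 0.184% higher. Rps7 (ENSMUSG00000061477, chromosome 12, 28680853 to 28685952, minus strand) ran from 92.7 to 103 CPM (median 99.0) in dorsal hippocampus labelled KO and from 108 to 123 CPM (median 115) in dorsal hippocampus labelled WT. All 6 libraries labelled KO lay below all 6 labelled WT. The log2 change was -0.21 (SE 0.043; edgeR adjusted p = 0.041), and without the library apart in markers it was -0.20 (adjusted p = 0.049). Copies hold 41.6% of the counts shared with Rps7. With them added its log2 change was -0.18 and the adjusted p 0.076, and in a fit of all 48 libraries it was -0.22 with an adjusted p of 0.195. Leaving out 1 dorsal library at a time gave 0 lower in 9 of 12 fits and 2 lower without female KO 3. The share of all genes called is not given for these 12 fits. Without both dorsal libraries high in choroid plexus markers Rps7 had -0.25 and an adjusted p of 0.078. In 4 of 81 members (4.94%) the labels did not overlap, where 1.3% of all genes did not. Besides Rps7 these were Rps3, Rpl12 and Rpl7, chosen after their values were seen. Rps3, a 40S protein with a role in DNA repair, had 211 to 239 CPM in dorsal hippocampus labelled KO and 244 to 281 CPM in dorsal hippocampus labelled WT. Rpl12, a 60S protein at the base of the stalk, had 90.2 to 106 CPM (KO) and 109 to 126 CPM (WT), and Rpl7, also of the 60S subunit, 173 to 187 CPM (KO) and 190 to 195 CPM (WT). None of the 3 was called (edgeR adjusted p = 0.097, 0.114 and 0.375). Above 0 the smallest p belonged to Rps27a with a log2 change of 0.30, Rps28 with 0.10, Rps10 with 0.19 and Rpl34 with 0.08. Rps27a, which is made as a fusion with ubiquitin, ran from 42.4 to 107 CPM (median 48.3) in dorsal hippocampus labelled KO and from 45.2 to 51.6 CPM (median 50.2) in dorsal hippocampus labelled WT. With copies added Rps10 stood at -0.05 and Rpl34 at -0.20.

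In the medial prefrontal cortex 0 of 82 were called (0.24% of 17067 genes were) and 21 had an unadjusted p under 0.05, or 25.6%, where 13.1% of all genes did. Rpl22, a 60S protein, was the only member without overlap of the labels, at 68.0 to 74.8 CPM (KO) and 75.1 to 79.9 CPM (WT), where 0.668% of all genes did not overlap. The smallest adjusted p was 0.212, for Rpl10a. This 60S protein of the L1 stalk ran from 84.7 to 107 CPM (median 100) in prefrontal cortex labelled KO and from 102 to 120 CPM (median 114) in prefrontal cortex labelled WT, a log2 change of -0.16. Rps27rt had -0.69 and Rps18 -0.20. The values above 0 were 0.25 for Rps13, 0.17 for Rpl7a, 0.24 for Rps27 and 0.07 for Rpl23a. Copies hold 42.0% of the counts shared with Rps13, 39.0% with Rpl7a and 22.1% with Rpl23a. Values with copies added are not given for these genes. Rps27 and Rps27rt thus lay on opposite sides of 0. The sum of this identical pair averaged 89.1 ± 11.6 CPM in prefrontal cortex labelled KO and 98.3 ± 2.78 CPM in prefrontal cortex labelled WT (SD, n = 6 each).

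In the ventral hippocampus 0 of 81 were called (0.0748% of 17388 genes were), and 0 had an unadjusted p under 0.05, where 4.34% of all genes did. The largest departures by p were Rpl35a with a log2 change of -0.17, Rpl30 with -0.56, Rps18 with -0.15 and Rps14 with -0.14. Above 0 stood Rpl23a with 0.11, Rps13 with 0.07, Rpl29 with 0.19 and Rpl14 with 0.04. With copies added Rpl30 and Rpl29 stood at -0.01 each. DESeq2 also called 0 members in the prefrontal cortex and 0 in the ventral hippocampus.

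Single calls were few, but the genes leaned one way as a group. The median log2 change of the tested members was -0.15 in the cerebellum, -0.08 in the dorsal hippocampus, -0.09 in the prefrontal cortex and -0.05 in the ventral hippocampus, where the median of all genes tested lay between -0.0005 and 0.0108. Below 0 were 73 of 82, 73 of 81, 72 of 82 and 65 of 81, in the same order of regions. Of the 81 tested in every region, 57 were below 0 in all 4 and 0 above 0 in all 4, against 13.4% of 16236 genes below 0 in all 4. The members are not independent of each other, the labels do not say whether the regions came from the same animals, and no test was made of the group. The SD of the members' mean log2 level between single libraries of a group was 0.089. Each median compares several libraries per label, so this SD of single libraries is not its error. By role in the cerebellum, the medians were -0.15 for 31 40S genes, -0.15 for 43 60S genes, -0.10 for the 3 stalk genes and -0.09 for 5 paralogues.

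Without the 9 libraries apart in markers the medians were -0.04 in the cerebellum, -0.07 in the dorsal hippocampus, -0.02 in the prefrontal cortex and -0.12 in the ventral hippocampus. Members below 0 in all 4 regions were then 35 of 81, and 0 were above 0 in all 4. As a share of counts, the genes took 0.882% ± 0.078 in cerebellum labelled KO and 0.966% ± 0.079 in cerebellum labelled WT, 0.934% ± 0.031 and 0.978% ± 0.026 in dorsal hippocampus labelled KO and WT, 0.874% ± 0.070 and 0.915% ± 0.030 in prefrontal cortex labelled KO and WT, and 1.01% ± 0.119 and 1.04% ± 0.047 in ventral hippocampus labelled KO and WT (SD, n = 6 each). These ranges overlapped in every region. Genes shorter than 1500 bases, a class that includes some of the members, took 1.873% to 2.52% of counts in the 24 libraries labelled KO and 1.986% to 2.363% in the 24 labelled WT, with medians of 2.10% and 2.19%. The part of this difference in the members' lean was not tested.

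**Figure D3:**
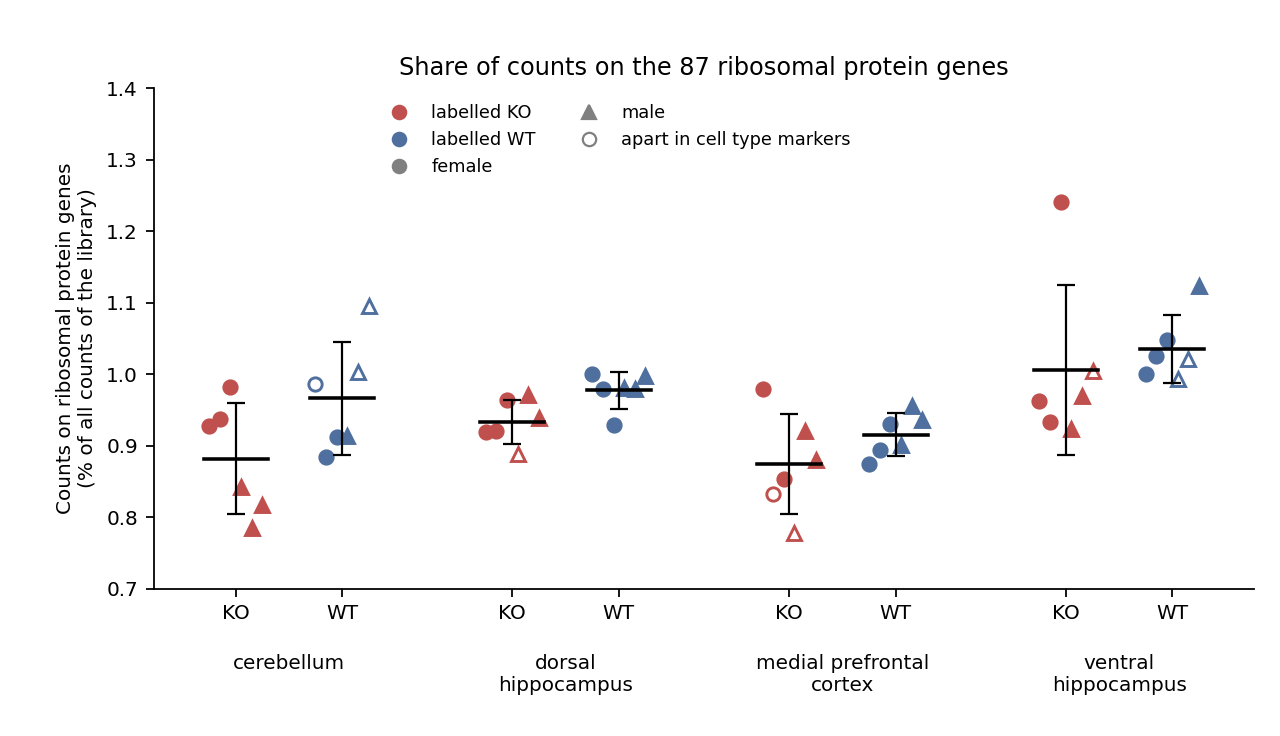
Share of each library's counts that fell on the 87 genes (vertical axis, percent, from 0.7), by region, with libraries labelled KO (red) left of those labelled WT (blue), circles for females, triangles for males, open symbols for libraries apart in cell type markers, and the mean with SD (n = 6 each). The ranges of the labels overlap in each region, and the ventral library female KO 3 stands alone at 1.241%.

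**Figure D4:**
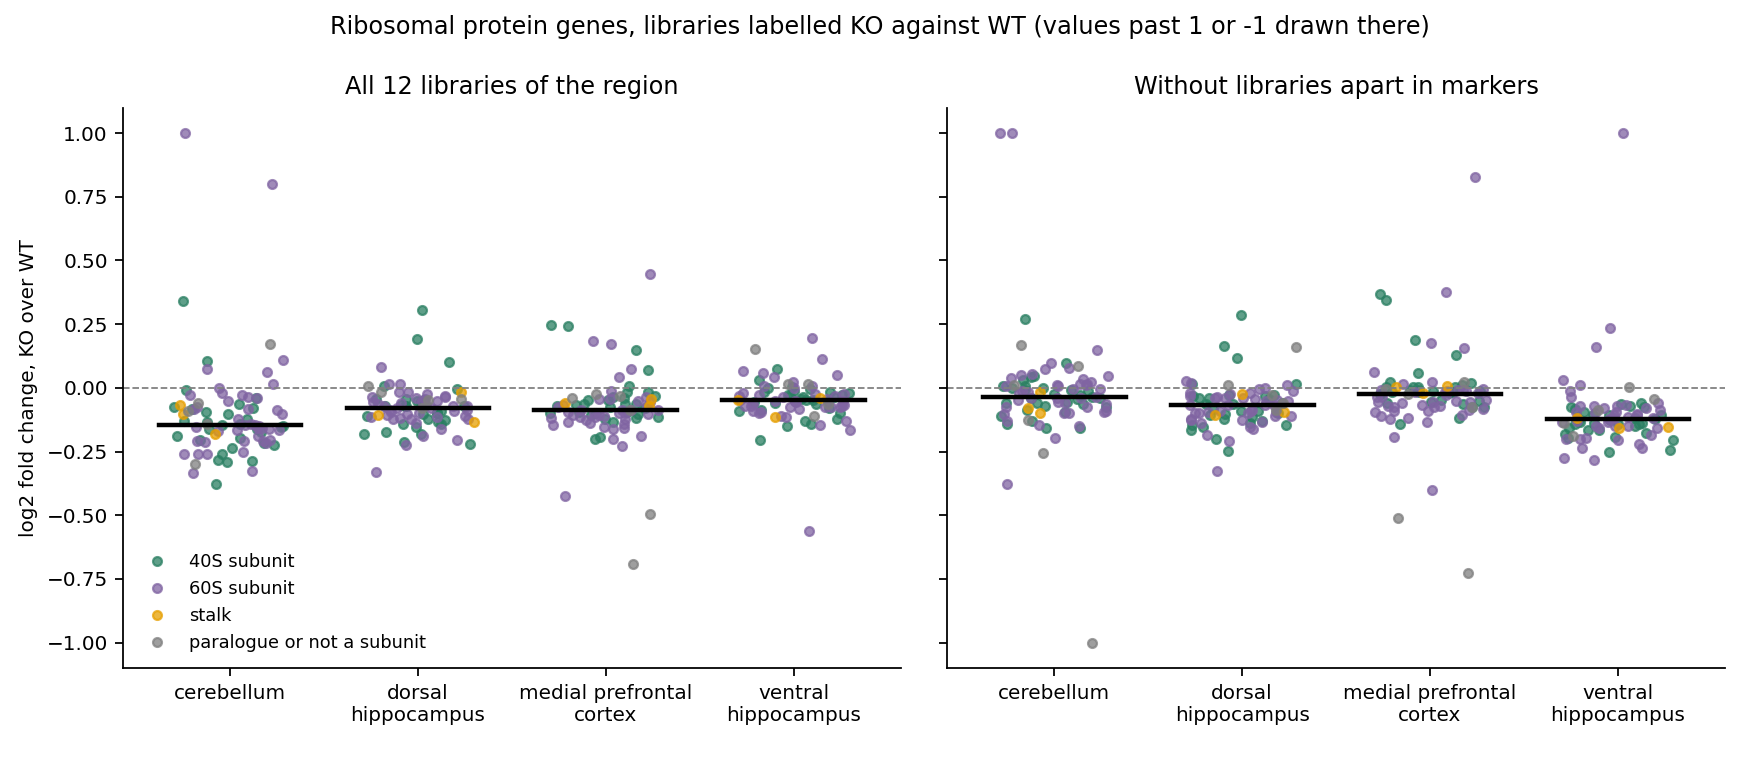
Fitted log2 change (vertical axis, libraries labelled KO over WT) of every tested ribosomal protein gene in each region, coloured by role, with the median as a bar, for all 12 libraries of a region (left) and without the libraries apart in markers (right); values past 1 or -1 are drawn at that edge. Most points lie below 0 in each region, and the cerebellar median is -0.15 on the left and -0.04 on the right.

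Whether the change between labels differed among the regions was asked of each gene over all 48 libraries. It was called for 0 of 83 members, where 7.79% of 19183 genes were called, and 1 member, Rpsa, was called by DESeq2 (adjusted p = 0.043). In edgeR the smallest adjusted p-values were 0.085 for Rpsa, 0.149 for Rps6, 0.220 for the paralogue Rpl22l1 and 0.267 for Rpl10. Without male WT 1 of the cerebellum 6 members were called, and 1 without female WT 2. The share of all genes called is not given for these fits or for DESeq2. Their counts are therefore not a result about the members. Without the 5 libraries high in choroid plexus markers 4 were called (4.76%), Rpsa, Rpl22l1, Rps6 and Rpl10, where 21% of all genes were. Without the 9 libraries apart in markers 0 were called, where 0.225% of all genes were.

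Sex was asked about in 2 ways. The difference of the label's change between females and males (females minus males) was called for 0 members in any region, where the share called of all genes was 1.61% in the prefrontal cortex and 0 elsewhere. DESeq2 called 6 members in the cerebellum (7.32%; 0.909% of all genes) and 3 in the dorsal hippocampus (3.7%; 1.63% of all genes). Without the 9 libraries apart in markers 0 were called in any region. In the cerebellum 79 of 82 members had a difference above 0 (median 0.32 on the log2 scale; all genes -0.01) and 35 had an unadjusted p under 0.05 (42.7%; 13.5% of all genes). Without the libraries apart in markers 76 of 83 were above 0. In that fit male WT 1, the library high in choroid plexus markers, was the only male library labelled WT. Rpl38, a 60S protein known for its part in the translation of Hox messages, showed the smallest p. It had 64.0, 57.6 and 55.8 CPM in cerebellum of females labelled KO, against 53.6, 45.1 and 48.6 CPM in females labelled WT. In males it had 50.2, 51.1 and 46.4 CPM under the KO label, against 60.9, 74.2 and 66.6 CPM under the WT label. The groups, of 3 libraries each, did not overlap within either sex, and they lay in opposite directions. Rpl38 was picked by its p, and the share of all genes without overlap within a sex is not given. The difference was 0.71 (SE 0.13; edgeR adjusted p = 0.245). Rps21 had 0.64 (adjusted p = 0.245) and Rps29 0.76 (adjusted p = 0.259) by the same test. The share of counts on all members in the cerebellum was 0.949% ± 0.029 in females labelled KO and 0.928% ± 0.053 in females labelled WT, and 0.815% ± 0.029 in males labelled KO and 1.00% ± 0.091 in males labelled WT (SD, n = 3 each). Of the male libraries labelled WT, 2 of 3 are among those apart in markers. Members also lay mostly above 0 elsewhere, with 53 of 81 in the dorsal hippocampus (median 0.07), 63 of 82 in the prefrontal cortex (0.11) and 65 of 81 in the ventral hippocampus (0.14). In that order 17.3%, 7.32% and 2.47% of members had an unadjusted p under 0.05, where 12.9%, 17.8% and 4.34% of all genes did. The named genes there were Rpl27 (0.49), Rps24 (-0.33) and Rps29 (0.42) in the dorsal hippocampus, Rpl21 (0.68), Rpl27 (0.37) and Rps25 (0.23) in the prefrontal cortex, and Rpl21 (0.87), Rps29 (0.78) and Rpl30 (1.28) in the ventral hippocampus. With copies added the ventral values were 0.26 for Rpl21 and -0.08 for Rpl30. The prefrontal value of Rpl21 is by its own counts and is uncertain for the same reason.

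Females against males, averaged over labels, gave 0 members called in each region, where 0.0393% of genes were called in the cerebellum, 0.0575% in the dorsal hippocampus, 0.105% in the prefrontal cortex and 0.0345% in the ventral hippocampus. Unadjusted p-values under 0.05 numbered 5, 8, 3 and 3 members in that order, or 6.1%, 9.88%, 3.66% and 3.7%, where 17.1%, 7.79%, 9.3% and 18.5% of all genes had one. DESeq2 called 1, in the ventral hippocampus, where it called 2.92% of all genes. In the cerebellum the smallest p belonged to Rps27rt, with 29.5 to 63.5 CPM (median 41.7) in females and 18.1 to 38.5 CPM (median 26.5) in males, a log2 difference of 0.66 (edgeR adjusted p = 0.262), followed by Rps2 (0.20) and Rpl10 (0.20). The sum of Rps27rt with Rps27, identical in coding sequence, was not compared between the sexes. In the dorsal hippocampus low p-values belonged to Rpl35a (0.18) and Rps27a (-0.40), in the prefrontal cortex Rpl22l1 (0.15), Rpl7l1 (0.14) and Rpl27a (0.11), and in the ventral hippocampus Rpl30 (0.99; 0.21 with copies), Rpl10 (0.21) and Rps2 (0.22). Without the libraries apart in markers Rpl30 was called in the ventral hippocampus by its own counts (1.80; edgeR adjusted p = 0.043), where 0.0487% of all genes were, and 0 members elsewhere.

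Regions were compared in a fit of all 48 libraries, whose counts of calls cannot be set beside those of the fits of 12 libraries above, and the median differences between regions were of similar size to those between labels. In the cerebellum, set against the mean of the 3 forebrain regions, 49 of 83 members were lower, where 31.4% of all 19183 genes were, and 4 were higher, where 34.9% were. The median log2 difference of the members was -0.15, and that of all genes 0.03. Lower were 20 of 31 40S genes (median -0.18), 25 of 43 60S genes (median -0.14) and all 3 stalk genes.

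Rps2, a 40S protein at the messenger RNA entry channel, showed the smallest p. It ran from 104 to 164 CPM with a median of 139 in the 12 cerebellar libraries, against 162 to 281 CPM with a median of 203 in the 36 forebrain libraries. The ranges met only at their ends, and the log2 difference was -0.57 (SE 0.044; edgeR adjusted p = 4.0e-14). Rpl12 ran from 65.3 to 92.6 CPM (median 78.2) in cerebellum and from 90.2 to 139 CPM (median 108) in forebrain, a difference of -0.45 (SE 0.039; edgeR adjusted p = 9.9e-13). Rplp1 had 221 to 334 CPM (median 279) in cerebellum and 293 to 513 CPM (median 362) in forebrain, a difference of -0.40 (SE 0.044; edgeR adjusted p = 3.8e-10). Of the other stalk proteins, Rplp2 averaged 74.0 ± 7.82 CPM in cerebellum and 85.4 ± 8.20 CPM in forebrain, and Rplp0 averaged 72.8 ± 6.91 CPM in cerebellum and 78.3 ± 6.92 CPM in forebrain (SD, n = 12 and 36; log2 differences -0.21 and -0.11, both called). Copies hold 52.0% of the counts shared with Rplp0. With copies added, all 53 members called in this contrast were called again. Rps14 (-0.32), Rpl10 (-0.31) and Rpl5 (-0.25) followed by p. Rpl5 carries the 5S RNA into the ribosome and, with Rpl11, binds Mdm2. Rpl41, which codes for a very short basic peptide, had one of the largest differences (-0.56; chosen after its values were seen).

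The 4 members that were higher in cerebellum included 2 paralogues. Rpl7l1, a relative of Rpl7, ran from 39.3 to 51.7 CPM (median 46.1) in cerebellum and from 32.6 to 48.1 CPM (median 41.2) in forebrain, a difference of 0.18 (SE 0.037; edgeR adjusted p = 6.6e-05). Rpl22l1, which is known to be repressed by Rpl22, ran from 24.1 to 39.9 CPM (median 33.5) in cerebellum and from 22.4 to 33.4 CPM (median 27.4) in forebrain, a difference of 0.21 (SE 0.046; edgeR adjusted p = 1.4e-04). Its partner Rpl22 was lower, at 69.1 ± 5.88 CPM in cerebellum and 76.0 ± 5.08 CPM in forebrain (SD, n = 12 and 36; log2 difference -0.14). Rps6 (0.10) was another of the 4. Rpl18 (0.08) and Rpl23a (0.11) were not called.

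Without the 9 libraries apart in markers the cerebellar median was -0.21, 48 of the 53 calls were shared, and 1 member was higher. Rps6 then stood at 0.002 and Rpl22l1 at 0.08, and neither was called. In libraries labelled KO alone 2 were higher. The share of all genes called higher is not given for these settings. With copies added, Rpl34 was called lower (-0.17; 0.06 by its own counts), as was Rpl30 (-0.17), and Rpl29 stood at -0.36 beside -0.65 by its own counts.

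**Figure D5:**
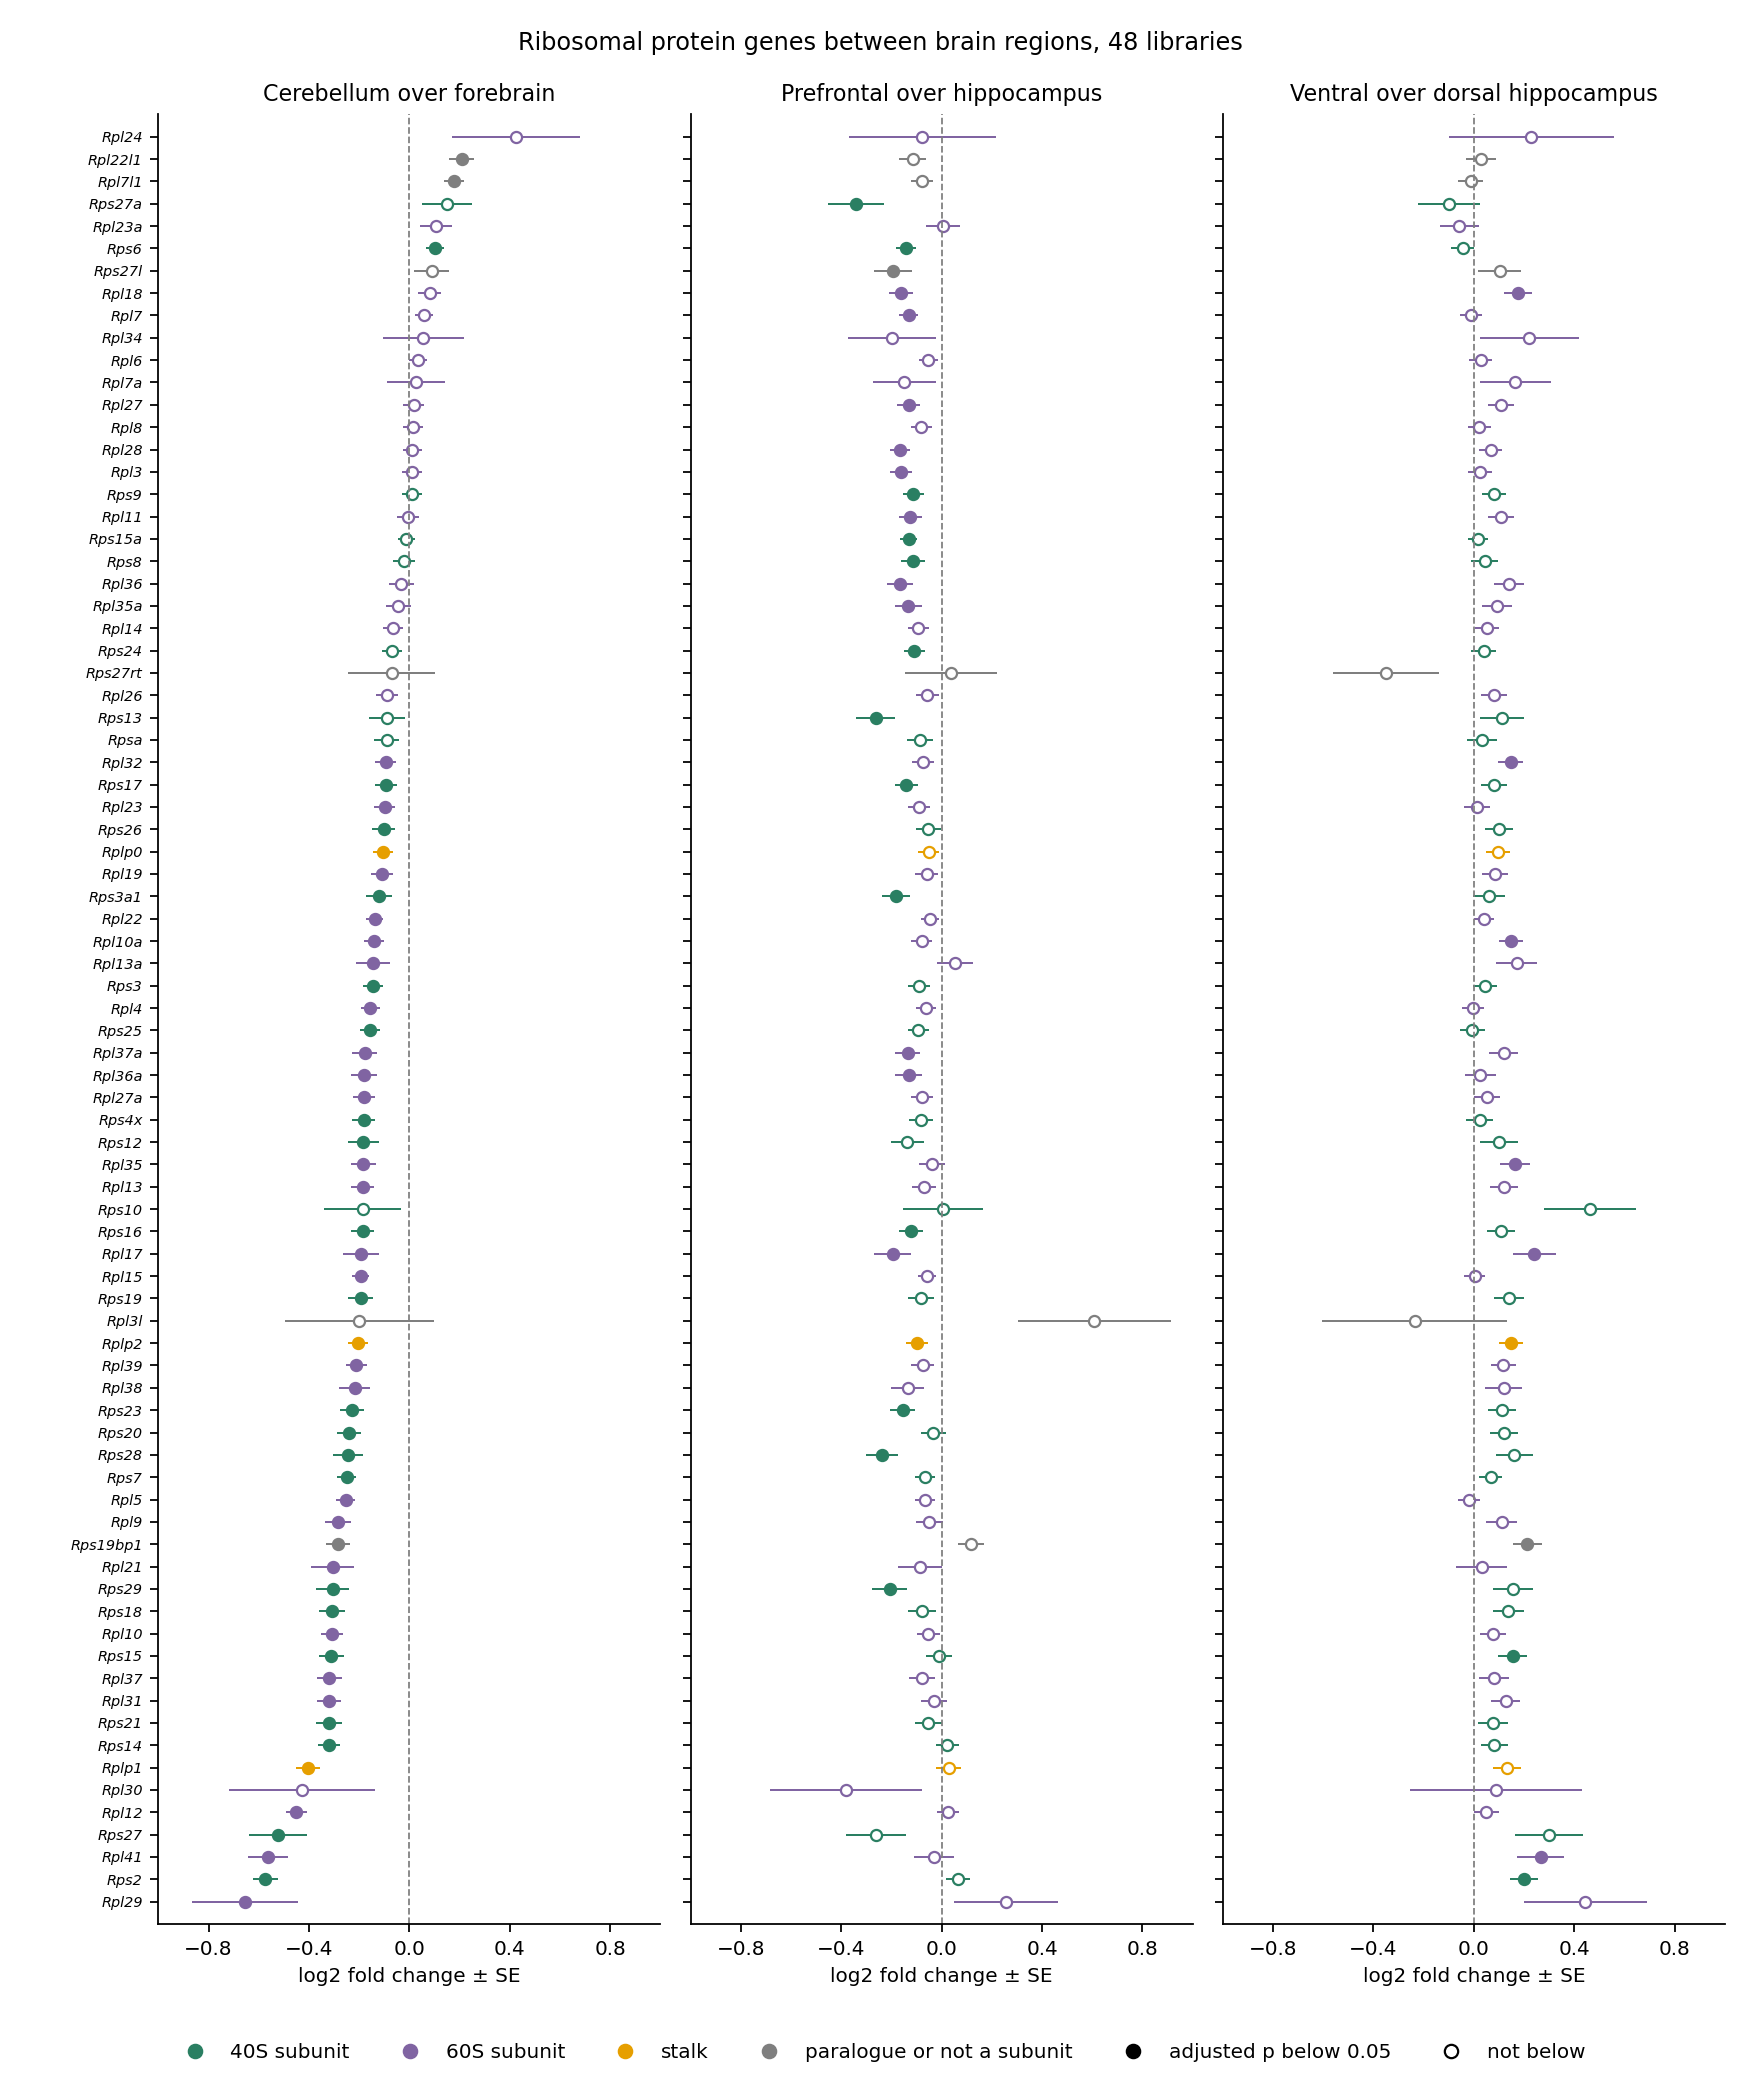
Fitted log2 difference with its SE (horizontal axes) of 80 of the 83 tested ribosomal protein genes, ordered by the difference between cerebellum and forebrain, for cerebellum over forebrain (left), prefrontal cortex over hippocampus (middle) and ventral over dorsal hippocampus (right), coloured by role and filled where the adjusted p was below 0.05. Filled points lie mostly left of 0 in the left panel (49 of 52), only left of 0 in the middle panel (26) and only right of 0 in the right panel (10).

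In the prefrontal cortex, set against the mean of dorsal and ventral hippocampus, 29 of 83 members were lower, where 17.9% of all genes were, and 0 were higher, where 15.9% were. The median was -0.09 (all genes -0.02). By role 15 of 31 40S genes and 12 of 43 60S genes were lower. Rpl28, which like few others has no counterpart in yeast, ran from 96.3 to 117 CPM (median 105) in the 12 prefrontal libraries and from 107 to 153 CPM (median 116) in the 24 hippocampal libraries, a difference of -0.17 (SE 0.036; edgeR adjusted p = 4.3e-04). Rps15a (-0.13), Rpl3 (-0.16), Rps6 (-0.14) and Rps28 (-0.24) followed. In each of these the ranges overlapped while the medians stood apart. Above 0 by p were Rps19bp1 (0.12; edgeR adjusted p = 0.051), Rpl3l (0.61), Rps2 (0.07), Rpl29 (0.26; 0.05 with copies), Rpl13a (0.05) and Rplp1 (0.03). Without the libraries apart in markers 19 were lower (13.9% of all genes), as many as without male KO 1 of the prefrontal cortex alone. With the KO label alone 4 of 82 were lower (8.55% of all genes), and with the WT label alone 12 of 82 (10.3% of all genes).

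In the ventral hippocampus, set against the dorsal, 11 of 83 members were higher, where 7.15% of all genes were, and 0 were lower, where 9.7% were. The median was 0.09 (all genes 0.01), and 73 of 83 were above 0. Rps19bp1 ran from 15.5 to 21.6 CPM (median 18.2) in the 12 ventral libraries and from 13.2 to 19.2 CPM (median 15.4) in the 12 dorsal libraries, a difference of 0.21 (SE 0.054; edgeR adjusted p = 0.005). Rps2 had 170 to 281 CPM (median 212) in ventral and 162 to 208 CPM (median 189) in dorsal hippocampus, a difference of 0.20 (SE 0.052; edgeR adjusted p = 0.007). Rpl10a (0.15), Rpl18 (0.18), Rplp2 (0.15) and Rpl32 (0.15) followed by p, and Rpl41, Rpl17, Rpl35 and Rps15 were also among the 11. With copies added Rpl17 was not called (0.05; 0.24 by its own counts). Below 0 were Rps27rt (-0.35), Rps6 (-0.04), Rps27a (-0.10), Rpl23a (-0.06), Rpl3l (-0.24) and Rpl5 (-0.02), none of them called. The sum of Rps27rt and Rps27, identical in coding sequence, averaged 106 ± 12.6 CPM in ventral and 101 ± 8.45 CPM in dorsal hippocampus (SD, n = 12 each). The ventral library female KO 3, where the genes took the most counts, bears on the number of members called higher. Without it 4 members were higher. The count was 5 without ventral male KO 3 or male WT 3, 6 without dorsal male WT 3, and 7 without dorsal female KO 2, male KO 3 or female WT 3. The share of all genes called is not given for these fits. Without the 9 libraries apart in markers 13 of 84 were higher (7.16% of all genes) and Rpl18 was not called (0.15; edgeR adjusted p = 0.073), and without the 5 high in choroid plexus markers 7 were (6.46%). With the KO label alone 0 were higher (0.509% of all genes), and with the WT label alone 1 was (3.67%).

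Other genes of translation were read beside them, from lists chosen with earlier results of these data known. In cerebellum labelled KO against WT, Eef2, the translocase of elongation, was lower at 1397 against 1631 CPM (log2 change -0.22; edgeR adjusted p = 0.048), the only call among 7 elongation genes, and it was also the only call among 17 other TOP messages. Of 76 ribosome biogenesis genes, 4 were higher (Bms1 0.27, Utp14a 0.41, Wdr3 0.31 and Polr1b 0.33) and 2 lower (Rrp12 -0.36 and Nop10 -0.24). Of 23 genes of mTORC1 and TOP control, Max was higher (0.59) and Mtor, the kinase itself, lower (-0.19). Of 77 mitochondrial ribosomal protein genes, Mrpl41 was lower (-0.20). Of 10 p53 targets, Phlda3 was lower (-1.08). Of all 17825 genes tested there, 2.43% were higher and 5.55% lower, and the few calls are not read as a result about the lists. These calls come from the same libraries as the 3 members called there. Without the 3 libraries apart in markers none of these 11 genes was called: Eef2 had a log2 change of -0.13 (edgeR adjusted p = 0.548), Phlda3 one of -0.56 (edgeR adjusted p = 0.559) and Max, with the smallest adjusted p of the 11 (0.50), one of 0.40. In the other 3 regions no gene of these lists was called between labels.

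Between regions most companion lists had calls in both directions. In cerebellum against forebrain, 28 of 77 mitochondrial ribosomal protein genes were higher and 11 lower, and 29 of 76 biogenesis genes were higher and 24 lower. Of all 19183 genes tested there, 34.9% were higher and 31.4% lower. Eef1a1, the elongation factor that brings in aminoacyl-tRNA, was lower (-0.26) and Eef2 higher (0.21). The poly(A)-binding protein gene Pabpc1, itself a TOP message, was lower at 121 ± 12.1 CPM in cerebellum and 163 ± 9.50 CPM in forebrain (SD, n = 12 and 36; log2 difference -0.43). Among ribosomal proteins outside the symbol rule, Rack1 was lower (-0.08; edgeR adjusted p = 0.020), and Fau (-0.09) was not called. In prefrontal cortex against hippocampus 7 of 17 other TOP messages were lower and 1 higher, where 17.9% and 15.9% of all genes were. Rack1 was again lower there (-0.11). In ventral against dorsal hippocampus 1 of the 17, Eef1d, was higher (0.11), where 7.15% of all genes were.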

How the data were processed

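The authors deposited raw counts per gene for 48 mouse brain libraries with mm39 positions and gene lengths. HISAT2 2.0.5, DESeq2 and mm39 are named per the submitters' processing notes. Which tool counted the reads, whether by strand, and what became of reads with several matches is not given in the sources used here, and this bears on genes with near-identical copies. The labels' extraction protocol speaks of liver although the tissue given is brain. They speak of biological replicates, and p-values measure the spread between these libraries. No pair of libraries in a group was a duplicate (48 pairs, lowest chi-square per gene 3.73).

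Tests used the quasi-likelihood method of edgeR 4.0.16 under R 4.3.3, with TMM scaling and the filterByExpr rule (at least 10 counts, total at least 15). Adjustment was by Benjamini-Hochberg across every gene tested, and a call needed an adjusted p under 0.05. Labels and sexes were compared within each region over 12 libraries with a mean for each sex and label. Regions were compared in a fit of all 48, and an F test there asked whether the label's change varied between regions. CPM levels use TMM factors of all 48 libraries, and SDs within groups use a pseudocount of 0.5 CPM. Copies were found with blastn 2.17.0 in GENCODE M21 transcripts (95% identity, 50% coverage). The procedure was tested on simulated data.

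Members and lists were chosen with earlier results of these data known. Named were members called between labels, 4 each way per region by p, 6 each way per region contrast, 3 per region for sex and its interaction, 4 for variation between regions, the 5 highest and 5 lowest levels, and the paralogues. Rps4l is named by that rule but is not among the 87, and not every gene that it picks is reported. Alternatives were DESeq2 1.42.0, its size factors, no filter, a stricter filter (1 CPM in 6 libraries), pseudogene copies added, a replicate block, all 48 libraries in one model, one label only, and each library left out. Copies added by sequence and the removal of the 9 libraries, or of 5 high in choroid plexus markers (more than 2 on the log2 scale from the region's median), were chosen after seeing the data.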

Additional observations from a re-analysis of the deposited data

Results flagged for a closer look

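Each group of 6 libraries under one label in one region was searched for a library far from the rest (gap over range above 0.625) in 9 measures, the share of counts on the members and the levels of 8 genes. Of these 72 searches, each of 1 group in 1 measure, 12 found one. The cut gives about 1 in 20 for a single search of independent values. Here the measures overlap, so that rate is no baseline for the 12.

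Ventral hippocampus female KO 3 accounted for 6 of the 12. Its share was 1.241% where the others labelled KO had 0.923% to 1.004%. It had 433.8 CPM of Rpsa (others 308.8 to 331.6), 152.4 CPM of Rps19 (others 104.1 to 118.0), 130.0 CPM of Rps7 (others 95.69 to 107.6), 139.1 CPM of Rpl12 (others 96.32 to 104.4) and 512.8 CPM of Rplp1 (others 339.9 to 359.7). Genes shorter than 1500 bases took 2.52% of its counts, the highest of the 48 libraries, and its summed cell type markers did not place it among the 9 libraries apart. Their part in its high values was not tested.

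Ventral hippocampus male WT 3 had 128.6 CPM of Rpl12 (others labelled WT 107.9 to 113.6) and 277.4 CPM of Rpl41 (others 209.0 to 229.7). Dorsal hippocampus female WT 3 had a share of 0.929% (others 0.979% to 1.001%), and dorsal male WT 3 had 125.9 CPM of Rpl12 (others 109.1 to 113.5). In the prefrontal cortex female KO 1 had 120.5 CPM of Rps7 (others labelled KO 91.88 to 101.5), and male WT 2 had 129.2 CPM of Rpl12 (others labelled WT 108.7 to 116.2).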

How the results depend on the processing

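Members lower in cerebellum labelled KO, 3 as reported, numbered 18 under DESeq2 (22%; 12.3% of all genes were lower), 5 under the stricter filter (6.25%; 6.59%), 25 with 1 higher in one model of all 48 libraries (17.8% of all genes lower), 0 without the libraries apart in markers (0.0369%) and 34 without the library high in choroid plexus markers (41%; 17.4%). In the dorsal hippocampus the 1 lower became 5 under DESeq2 (6.17%; 1.77% of all genes), 6 (with 1 higher) without a filter (1.3% lower), and 0 with copies added by name, with copies added by sequence, in one model, or without the libraries high in choroid plexus markers. Without a filter the prefrontal cortex had 3 higher and 6 lower (1.36% and 0.327% of all genes). The difference between sexes in the label's change was called for 6 members (cerebellum; 0.909% of all genes) and 3 (dorsal hippocampus; 1.63%) under DESeq2, and for 6 (dorsal hippocampus; 1.62%) and 4 (prefrontal cortex; 3.23%) without a filter. Females against males gave 3 (dorsal hippocampus) and 1 (ventral hippocampus) without a filter, and 1 (ventral) under DESeq2 or without the libraries apart in markers. The share of all genes is not given for the unfiltered counts. The F test between regions gave 1 under DESeq2 and 4 without the libraries high in choroid plexus markers. Cerebellum against forebrain had 2 higher in libraries labelled KO and 1 without the libraries apart. For these counts, and for the 1 higher in prefrontal cortex against hippocampus, the share of all genes called higher is not given. Prefrontal cortex against hippocampus had 1 higher under DESeq2, its size factors, copies added by name or without the libraries high in choroid plexus markers, and 4, 12 and 19 lower with the KO label alone, with the WT label alone, and without the libraries apart (8.55%, 10.3% and 13.9% of all genes). Ventral against dorsal hippocampus had 6 higher without a filter (3.01% of all genes), 7 without the libraries high in choroid plexus markers (6.46%), 0 with the KO label alone (0.509%) and 1 with the WT label alone (3.67%).

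Leaving out 1 library gave 0 to 34 lower in the cerebellum, 0 to 1 higher and 0 to 2 lower in the dorsal hippocampus between labels, 0 to 1 in dorsal females against males, and 0 to 6 by the F test. It gave 3 to 6 higher and 43 to 54 lower in cerebellum against forebrain, 0 to 3 higher and 19 to 36 lower in prefrontal cortex against hippocampus, and 4 to 15 higher in ventral against dorsal hippocampus (4 without ventral female KO 3). Apart from the 34 lower in the cerebellum, the share of all genes called is not given for these counts.

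Same-numbered libraries were compared in how they deviated from their groups. A correlation over 0.1 was found in 24 of 72 pairs across regions (median 0.04, highest 0.45). Across labels, where a pair cannot be the same animal, it was found in 5 of 24 (median -0.04, highest 0.19). These values cannot decide whether same-numbered libraries of different regions came from the same animal. With the replicate block the cerebellum had 0 lower, the F test called 1, prefrontal cortex against hippocampus had 1 higher and 29 lower, ventral against dorsal 14 higher, and cerebellum against forebrain 4 higher and 51 lower. That setting called 522 of all 17825 genes between labels in the cerebellum. Of 19183 genes it called 6737 in prefrontal cortex against hippocampus, 3543 in ventral against dorsal and 12853 in cerebellum against forebrain, either way.

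Among the genes named, changes of sign fell on uncalled values. With copies added by name and by sequence, Rps10 was -0.0017 and -0.0069 in the cerebellum and -0.053 and -0.055 in the dorsal hippocampus, and Rpl34 was -0.194 and -0.195 there. By sequence, Rpl30 was -0.084 in the cerebellum and -0.0836 for the sex difference in the ventral hippocampus, where Rpl29 was -0.0145. Without the libraries apart, Rps10 was -0.00077 (cerebellum), Rpl34 -0.0508 (dorsal), Rps13 -0.105, Rpl29 -0.133 and Rpl30 0.162 (ventral), with Rpl3l at 0.0879 (ventral against dorsal), and Rpl30 -0.166 for the sex difference in the ventral hippocampus. Without the libraries high in choroid plexus markers Rpl5 was 0.0029 (ventral against dorsal). In libraries labelled KO Rpl23a was 0.0513, and in those labelled WT Rps27a was 0.126. Leaving out 1 library, Rpl34 ranged from -0.0508 to 0.19 (dorsal), and in the ventral hippocampus Rps13 from -0.0048 to 0.144, Rpl29 from -0.0571 to 0.301 and Rpl14 from -0.0408 to 0.0808. In ventral against dorsal Rpl3l ranged from -0.549 to 0.0602 and Rpl5 from -0.0411 to 0.0033. Fewer libraries or another unit of counting is what these settings change, and beyond that the cause was not tested. Rpl24, Rpl3l and the 4 untested genes held few counts per library, which limits what can be read from them.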
